A study of Lytechinus variegatus with 64 samples.

Results

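The egg-restricted genes of the green sea urchin Lytechinus variegatus are 79 of the 25887 genes counted, chosen because their transcripts were far higher in unfertilized eggs than in every other adult sample type. A gene entered if its mean in eggs was at least 10 CPM (the gene's reads for every 1000000 reads counted in the library) and if that mean, with 0.5 CPM added, was at least 4 times the mean of each of the 13 other adult types. Every egg library also had to lie above the mean of every other type. The genes were thus selected on their measured levels in eggs against the other adult types, and those levels are given below as a description without a test. The name holds for the averages of the 14 adult types that the rule compared, but not for all 64 libraries. The same genes were also high in an ovary labelled stage 1, in a juvenile ovary, in 2 of 3 juvenile gonads of indeterminate sex and, to a lesser degree, in 1 radial nerve library.

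The atlas from which the genes come covers dissected adult organs, shed eggs and young gonads, all labelled wild type, with no treatment. Unfertilized eggs, the adult ovary and the adult testis had 4 libraries each. The other 11 adult types were axial gland, esophagus, gut, interambulacral plates, lantern muscle, radial canal, radial nerve and tube foot with 4 libraries each, and mouth, peristomial membrane and rectum with 3 each. Juvenile gonads were taken from animals raised in the laboratory to 4.5 months post fertilization, and comprised 3 libraries of indeterminate sex, 1 ovary and 1 testis. The stage 1 ovary, whose age and staging scheme were not given, coelomic fluid and green, mixed color, red and white spines had 1 library each. The stage 1 ovary, the juvenile gonads, coelomic fluid and spines, 11 libraries in all, were not used by the rule. Ages of the adults were not given. Neither the number of females that gave the eggs nor the animal behind each replicate was stated, so the spread behind each p-value may be technical. Adult libraries were made by Novogene and juvenile libraries by Admera Health, so age and provider cannot be told apart wherever adult and juvenile libraries are set side by side.

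An animal egg is loaded during oogenesis with RNA transcribed from the mother's genome, and this maternal RNA directs protein synthesis in the early embryo before the embryo's own genome takes over. In sea urchins the egg completes meiosis inside the ovary and is stored there until spawning, together with nutritive phagocytes, the somatic cells that hold yolk for the germ line. Genes transcribed mainly in growing oocytes commonly encode parts of the egg surface, cortical granules, meiotic regulators and RNA-binding proteins. The count table and the reference annotation used here give these 79 genes locus identifiers without product names, so no role is given to any of them. All 79 matched the RefSeq annotation of assembly Lvar_3.0, in which 77 were protein coding and 2, LOC121408238 and LOC121424416, were long non-coding RNA genes. A single transcript was annotated for 53 of them and more than 1 for the other 26.

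Library totals ran between 13113913 and 59521125 counts. Egg library totals were 42466640, 29833366, 34704601 and 51211276 counts. The egg-restricted genes together took 6.56%, 17.1%, 16.5% and 22.5% of the counts in egg replicates 1 to 4, a mean of 15.7% ± 6.64 (SD, n = 4). Their share in the 49 other adult libraries of the rule was between 0.00883% and 3.05%, with a median of 0.0552%. The highest of these was radial nerve replicate 2, and without it the highest share was 0.304%, in testis replicate 2. Radial nerve replicate 2 stood apart from its own group, in which replicates 1, 3 and 4 had 0.0746%, 0.0829% and 0.0312%.

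**Figure D1:**
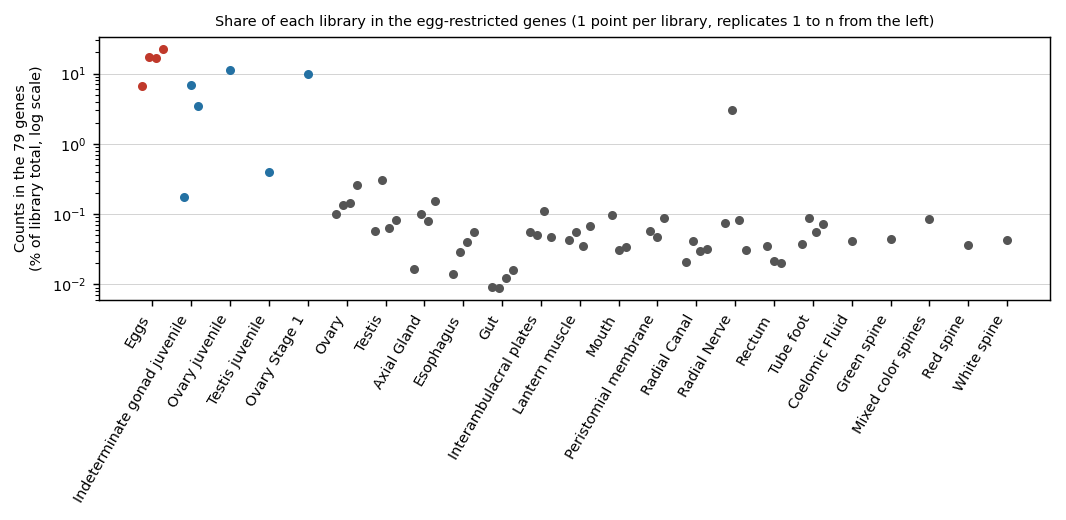
Share of each library's counts that fell in the 79 egg-restricted genes (vertical axis, percent of the library total, log scale), 1 point per library, by sample type (horizontal axis). Eggs are red, the juvenile gonads and the stage 1 ovary are blue and all others are grey. The stage 1 ovary at 9.89% and the juvenile ovary at 11.4% lie within the range of the 4 egg libraries (6.56% to 22.5%), while the 4 adult ovary libraries lie between 0.101% and 0.261%.

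In eggs, a few genes carried most of these counts. The 5 with the highest egg means took 69.5% of all counts in the egg-restricted genes, and the 8 highest took 82.5%. CPM values are not divided by transcript length, so this ranks genes by reads and not by molecules. LOC121423894 had 19169, 35092, 28590.5 and 32314 CPM in egg replicates 1 to 4. LOC121418683 had 11497, 33789, 29008 and 21926 CPM in the same libraries. LOC121408951 had 5149.9, 23504, 24496 and 41578 CPM. All of these are far above the level of the same gene in any adult ovary library, where LOC121423894 reached at most 77.1 CPM and LOC121408951 at most 482 CPM. LOC446158 had 5921, 17691, 25479.8 and 28914 CPM in eggs, LOC121408931 had 5008, 11516, 25272 and 16735 CPM and LOC121428897 had 1484, 11519, 9821 and 22702 CPM. Completing the 8 genes were LOC121408237, with 4304, 4377, 3408 and 5151 CPM, and LOC121421056, with 2519, 4178, 2254 and 7243 CPM.

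Egg replicate 1 was the low library for most of these genes and egg replicate 4 the high one. Replicate 1 had the lowest of the 4 egg values for 49 of the 79 genes and replicate 3 for 23, while replicate 4 had the highest value for 56. Whether all genes share this order of the egg libraries was not counted. The highest egg library was a median of 6.03 times the lowest, over a range from 1.51 times for LOC121408237 to 32.1 times for LOC121407315. Egg means ran between 11.1 and 28791 CPM, with a median of 191 CPM. Of the 79 genes, 15 had an egg mean of 1000 CPM or more, 33 lay between 100 and 1000 CPM, and 31 lay below 100 CPM. The spread within eggs bears on membership. Leaving out egg replicate 4 gave 64 genes, and leaving out egg replicate 1 gave 96.

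The ratio of the egg mean to the next highest adult type, each with 0.5 CPM added, was between 4.03 and 106, with a median of 12.1, and was 16 or more for 30 genes. LOC121415210 had the highest ratio, with 215, 2092, 538 and 3863 CPM in the 4 egg libraries against 1.96, 34.1, 6.90 and 18.3 CPM in the 4 testis libraries, its next highest type. LOC121406555 followed at a ratio of 69.5, with 241, 3382, 1419 and 4009.6 CPM in eggs against a mean of 32.1 CPM in radial nerve. The long non-coding RNA gene LOC121408238 had a ratio of 69.5, with 271, 490.5, 89.4 and 570.5 CPM in eggs against 1.59, 16.7, 0.207 and 0 CPM in radial nerve. LOC121421557 and LOC121417344 had ratios of 34.0 and 33.2. In LOC121417344, egg replicate 4 at 808 CPM lay well above the other egg libraries, at 172, 274 and 186 CPM.

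Near the 4-fold limit, the genes just inside were LOC121418405 at a ratio of 4.03, LOC121425593 at 4.04, LOC121407371 at 4.28, LOC121411439 at 4.31 and LOC121408813 at 4.44. The genes just outside were LOC121407310 at 3.95, LOC121409485 at 3.83, LOC121413744 at 3.67, LOC121421696 at 3.46 and LOC121414231 at 3.24. In all, 119 genes with the required egg mean and with every egg library above every other mean stayed under the 4-fold ratio. Another 15 genes met the mean and the ratio but had an egg library below the mean of another type.

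Outside eggs, the next highest adult type was radial nerve for 37 of the 79 genes, ovary for 25, testis for 6, tube foot for 6, interambulacral plates for 2, and mouth, peristomial membrane and radial canal for 1 each. The place of the radial nerve came mostly from 1 library. Radial nerve replicate 2 was the highest nerve library for 72 genes, and for 51 genes it was the highest of all 49 other adult libraries. It was at a median of 15.7 times the mean of the other 3 nerve libraries, and at 10 times or more for 45 genes. These counts were not made over all genes, so no background share stands beside them. LOC121423894 shows the pattern, with 88.0, 6821, 24.0 and 1.06 CPM in the 4 nerve libraries. Relative to the egg mean, the level in this 1 library was a median of 19.5%, between 1.16% and 82.4%, and 53 genes lay between 10% and 40%. Over all 7951 genes with an egg mean of at least 10 CPM, its median was 77.2%. At 25% of the egg mean or more were 25 of the 79 genes, beside 90.9% of those 7951. The count between 10% and 40% was not made over those genes. What set this library apart was not tested. Choosing the genes again without it kept all 79 and added 2.

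**Figure D2:**
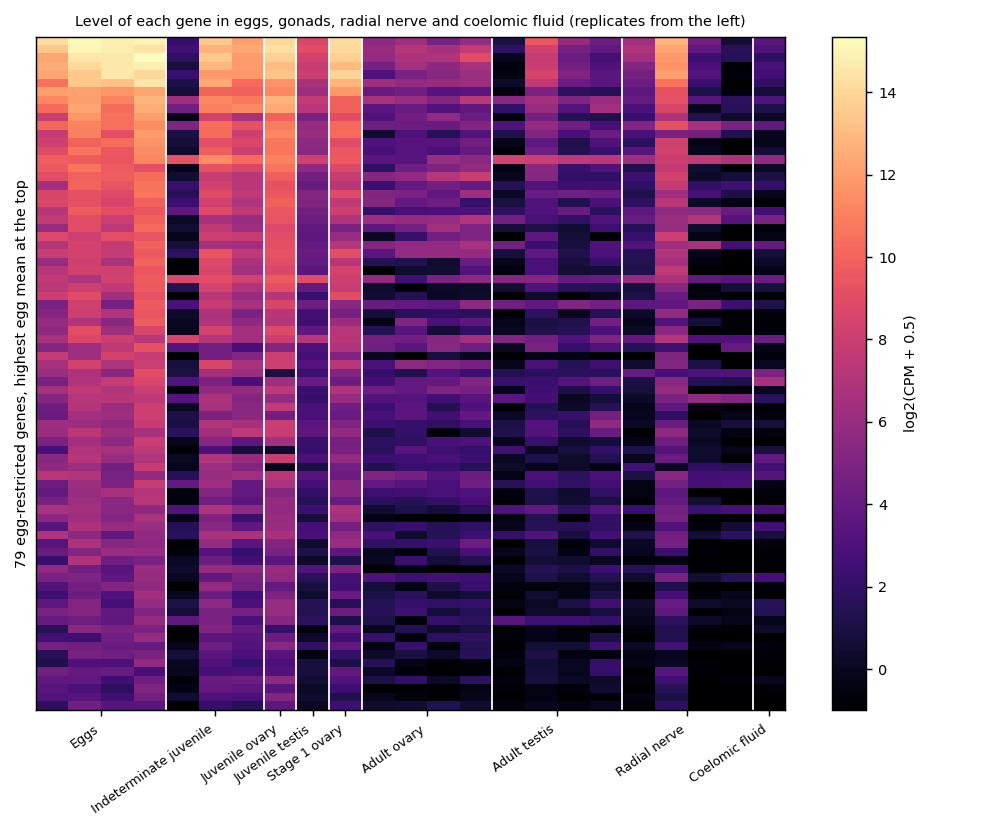
Level of each of the 79 egg-restricted genes, as log2(CPM + 0.5), in eggs, the gonad libraries, radial nerve and coelomic fluid. Each row is a gene, ordered by its egg mean, and each column is 1 library, with replicates of a type from the left. The columns of indeterminate juvenile gonads 2 and 3, the juvenile ovary, the stage 1 ovary and the second radial nerve library are bright for the same genes as eggs, while the first indeterminate gonad and the adult ovary are dark.

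Both the stage 1 and the juvenile ovary, outside the rule, held much of this RNA, and the juvenile ovary more of it. Levels are given as a percentage of the egg mean, with 0.5 CPM added to both. In the stage 1 ovary they had a median of 44.0%, between 5.16% and 158%, and 53 of 79 genes were at 25% of the egg mean or more. Over all 7951 genes with an egg mean of at least 10 CPM, most of which are expressed in many tissues, the median was 81.6% and 94.6% of genes were at 25% or more. In the juvenile ovary the egg-restricted genes had a median of 104%, between 0.972% and 340%, beside a median of 93.7% for all egg-expressed genes. At 25% or more were 73 of 79, beside 97.8%. There the egg-restricted genes thus stood close to egg-expressed genes at large by both measures. As 1 library each, the stage 1 and juvenile ovaries carry no replicate check. In RNA from whole organs, fewer egg cells and less RNA per cell cannot be told apart. Of the 79 genes, 50 were at 25% or more in both the stage 1 and the juvenile ovary.

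The share of the library taken by the 79 genes was 9.89% in the stage 1 ovary (95% Wilson interval 9.886 to 9.902, counting error only) and 11.4% in the juvenile ovary (11.36 to 11.38). The order of the genes by level was also close to that in eggs. Spearman's correlation with the egg mean, over the 79 genes, was 0.915 in the stage 1 ovary and 0.905 in the juvenile ovary. It was 0.917 in the juvenile testis and 0.880 in radial nerve replicate 2, so a close order does not set these ovaries apart. For the adult ovary and adult testis means it was 0.770 and 0.783. The correlation is a description over genes that share their transcript lengths across libraries. The juvenile ovary lay above the stage 1 ovary for 63 genes, beside 59.5% of egg-expressed genes, at a median of 2.52 times.

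The genes differed in how far the stage 1 ovary approached eggs. LOC121423611 had 112 CPM in the stage 1 ovary, against 103, 90.1, 41.4 and 49.0 CPM in the 4 egg libraries, at 158% of the egg mean the highest of the set. LOC121408238 had 521 CPM there, against 355 ± 218 CPM in eggs (SD, n = 4). LOC121407108, LOC121417363 and LOC121413969 were at 146%, 132% and 132% of their egg means. These values lie inside the spread of the egg libraries for LOC121407108, LOC121417363, LOC121413969 and LOC121408238 and just above the highest egg library for LOC121423611. At the other end, LOC121421704 had 1.80 CPM in the stage 1 ovary, against 4.22, 125, 20.4 and 26.6 CPM in eggs, or 5.16% of the egg mean. LOC447792 had 27.6 CPM, against 64.5, 512, 178 and 1219 CPM, and LOC446203 had 25.03 CPM, against 37.4, 271, 126 and 656 CPM. Both lay below all 4 egg libraries. LOC121407371 and LOC121418579 were at 7.77% and 10.1% of their egg means and likewise lay below every egg library.

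In the juvenile ovary, 3 genes were at less than 5% of the egg mean. LOC121420018 and LOC121420019, which neighbour each other in the annotation, had 0.404 and 1.502 CPM there, against egg means of 92.5 ± 92.0 and 191 ± 235 CPM (SD, n = 4). The third, LOC121420185, had 0.809 CPM, against 6.36, 124, 95.1 and 173 CPM in the egg libraries. In the second indeterminate juvenile gonad the same 3 genes were higher. LOC121420185 had 7.53 CPM there, LOC121420018 had 72.4 CPM and LOC121420019 had 88.8 CPM.

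**Figure D3:**
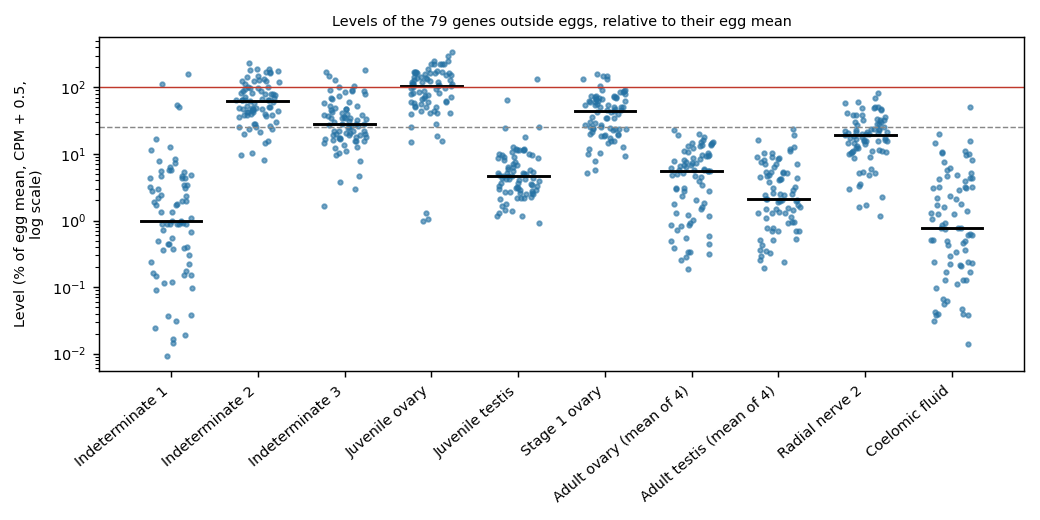
Level of the 79 egg-restricted genes in libraries or group means outside eggs, as a percentage of the egg mean (CPM + 0.5, log scale). Each point is a gene, the black bar is the median, the red line is 100% and the dashed line is 25%. The median is 104% in the juvenile ovary, 61.9% and 27.8% in indeterminate gonads 2 and 3, and 0.987% in indeterminate gonad 1.

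Adult ovaries held little of this RNA. The 4 adult ovary libraries gave 0.101%, 0.134%, 0.144% and 0.261% of their counts to the 79 genes, a mean of 0.160% ± 0.0699 (SD, n = 4), against 9.89% in the stage 1 ovary. The rule had used the adult ovary and capped its mean at 25% of the egg level. Below that cap the adult ovary mean was at a median of 5.50% of the egg mean, between 0.184% and 23.2%. Set against the stage 1 ovary, the adult ovary mean was at least 4-fold lower for 57 of 79 genes, beside 14.9% of the 25614 genes with any count and 23.5% of the egg-expressed genes. It was at least 4-fold higher for none of them, beside 12.6% and 25.2%. The part of this difference that comes from the cap cannot be told apart from the rest, since the stage 1 library was free of the cap. The stage 1 ovary lay above every adult ovary library for 68 genes, beside 44% of genes with any count and 38.9% of egg-expressed genes, with the same cap on the adult side. The juvenile ovary did so for 75, beside 49.6% and 41.6%. LOC121417363 had 0.220, 0, 0 and 0.176 CPM in the 4 adult ovaries, against 86.4 CPM in the stage 1 ovary. LOC121408238 had 0.906, 2.08, 0.573 and 0.775 CPM, against 521 CPM. For both genes the adult ovary libraries lay close together and far below the single stage 1 library.

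A smaller number of genes kept more of their egg level in the adult ovary. LOC121411439 was highest by this measure, at 23.2% of the egg mean, with 32.4, 23.7, 8.99 and 18.1 CPM in the adult ovary against 158, 127, 26.2 and 53.5 CPM in eggs. LOC121424254, LOC121418405, LOC121411173 and LOC121425593 followed at 19.6%, 19.2%, 18.1% and 16.03%. For LOC121411439 the adult ovary and egg ranges overlapped, since ovary replicate 1 lay above egg replicate 3. LOC121425593 had 72.3, 56.7, 59.4 and 129 CPM in the adult ovary, against 211, 528, 263 and 989 CPM in eggs, and these ranges did not overlap.

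The 3 juvenile gonads of indeterminate sex spanned a wider range of shares than the replicates of the adult gonads. The egg-restricted genes took 0.101% to 0.261% of counts in the adult ovary and 0.0582% to 0.304% in the adult testis, against 0.172%, 6.79% and 3.48% in indeterminate gonads 1 to 3. The first library was the lowest of the 3 for 74 genes, beside 24.3% of egg-expressed genes. It held 38 genes at less than 1 CPM, and its median was 0.987% of the egg mean. Medians were 61.9% in the second and 27.8% in the third, and neither had any gene under 1 CPM. Over all egg-expressed genes the medians were 158%, 125% and 96.3% in indeterminate gonads 1 to 3. At 25% of the egg mean or more were 4 genes in the first library, 70 in the second and 45 in the third, beside 93.5%, 97.7% and 94% of the egg-expressed genes. The second library lay above the third for 68 of the 79 genes, beside 64.4%.

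LOC446158 had 1.31, 7496 and 3863 CPM in indeterminate gonads 1 to 3, beside 8609 CPM in the juvenile ovary and 227 CPM in the juvenile testis. LOC121408931 had 4.04, 3659 and 3791 CPM in the indeterminate gonads and LOC121408951 had 2.97, 11271 and 3962 CPM. In each of these genes the first library lay below the juvenile testis and the other 2 lay far above it. The first gonad was below the juvenile testis for 70 genes, beside 38.5% of egg-expressed genes. Spearman's correlation with the egg mean over the 79 genes was 0.427 in the first library, while it was 0.905 in the second and 0.867 in the third. Sex of the 3 gonads was not given, and no sex is assigned to them here.

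The 4 genes at 25% of the egg mean or more in the first indeterminate gonad did not all have that library as the lowest. LOC121423589 had 639, 2752 and 1243 CPM in the 3 indeterminate gonads, with the first still the lowest. LOC121411173 had 377, 136 and 81.0 CPM. LOC121411122 had 417, 546 and 316 CPM and LOC121407371 had 13.2, 26.6 and 7.04 CPM. LOC121411173 was highest in the first of the 3 libraries, while the other 3 genes were highest in the second. LOC121411122 and LOC121411173 were also high in the juvenile testis, at 494 and 153 CPM, against 822 and 259.5 CPM in the juvenile ovary.

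Of the sexed juvenile gonads, the ovary had more of this RNA than the testis for nearly the whole set. At 11.4% of its counts against 0.401% in the testis, the ovary library was at least 4-fold higher for 73 of 79 genes, beside 3.94% of all genes with any count and 6.64% of egg-expressed genes. None was at least 4-fold lower, beside 8.67% and 10.8%. The ratio had a median of 23.9. With 1 library each, the difference has no replicate check. The juvenile testis library was not without these reads, since 36 genes reached 10 CPM in it. For 46 of the 79 genes the level in this library was between 2% and 5% of that in the juvenile ovary. The same held for 37 of the 48 genes with an egg mean of at least 100 CPM. Whether these reads came from testis cells was not tested.

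LOC121418683 had 19955 CPM in the juvenile ovary, against 539 CPM in the juvenile testis. LOC121428897 had 3184 CPM, against 104 CPM, and LOC121421557 had 5459 CPM, against 161 CPM. The 6 genes with a ratio under 4 were the 3 that were near 0 in the juvenile ovary, with LOC121411122 at 1.66, LOC121411173 at 1.69 and LOC121419381 at 2.95. They were named after their values were seen.

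**Figure D4:**
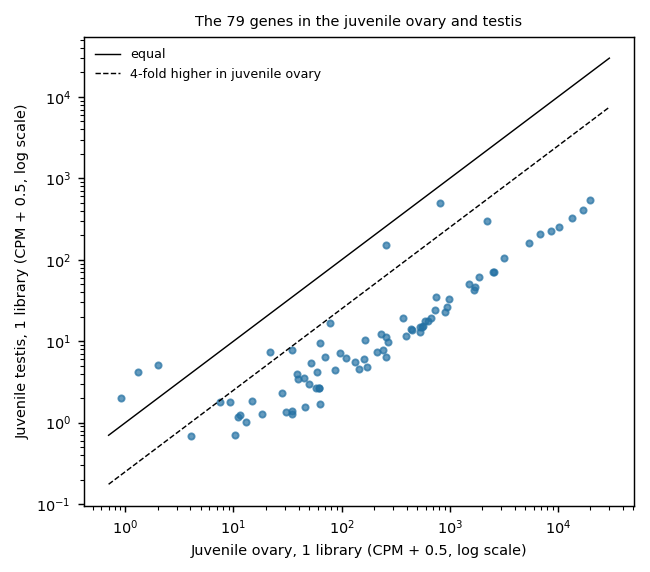
Level of each of the 79 egg-restricted genes in the juvenile ovary (horizontal axis) and the juvenile testis (vertical axis), as CPM + 0.5 on log scales, with 1 library each. The solid line marks equal levels and the dashed line a 4-fold higher level in the ovary. Most points run in a narrow band below the dashed line, at a median ratio of 23.9.

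Adult ovary and adult testis, both low in these RNAs, were compared with edgeR's quasi-likelihood test across 17715 genes, which included 75 of the egg-restricted genes. A call required at least a 2-fold difference and an adjusted p (Benjamini-Hochberg) under 0.05. The adult ovary was higher for 26 of these genes, beside 23.5% of all genes tested, and lower for 3, beside 32.3%. At an unadjusted p under 0.05 in either direction were 34 of the 75, a smaller share than the 61.9% of all genes tested. The median log2 fold change was 1.67 for the egg-restricted genes and -0.53 for all genes tested, and 62 of the 75 had a fold change above 0. Of the 26, 17 were called whichever library was left out, and none of the 3 lower calls was. Fitted with all 15 groups, 13 of 79 were called higher, beside 19.7% of all genes, so the larger share among the egg-restricted genes was not seen in that fit. The rule bounds both groups by the egg level, without comparing them. A gene far above the cap in either was never in the set.

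LOC447792 had the largest difference, with 12.3, 23.8, 83.6 and 30.8 CPM in the 4 adult ovaries, against 1.09, 1.66, 0.932 and 4.88 CPM in the 4 testes. All ovary libraries lay above all testis libraries, and the log2 fold change was 4.89 ± 0.78 (SE), with an adjusted p of 0.000586. LOC121413969 had 3.27, 3.84, 4.32 and 18.6 CPM in the ovary, against 0, 1.35, 0.149 and 0.771 CPM in the testis, with a log2 fold change of 4.39 ± 1.22 and an adjusted p of 0.0114. Its groups did not overlap either, although ovary replicate 4 lay far above the other 3. LOC121410559 had 38.8, 52.9, 138 and 243 CPM in the ovary, against 0.455, 38.7, 3.36 and 3.13 CPM in the testis, with a log2 fold change of 3.98 ± 1.23 and an adjusted p of 0.0190. In the testis, replicate 2 had the highest level of this gene and lay just below the lowest ovary library. LOC121407185 had 6.86, 46.5, 34.0 and 24.2 CPM in the ovary, against 0.364, 6.77, 2.27 and 4.54 CPM in the testis, and a log2 fold change of 3.70 ± 0.88 (adjusted p 0.00532). LOC121421725 was low in both, with 0.467, 2.43, 0.750 and 1.52 CPM in the ovary, against 0.0455, 0.359, 0.0746 and 0.0857 CPM in the testis. Its log2 fold change was 3.82 ± 1.05 (adjusted p 0.0108).

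The 3 genes lower in the adult ovary were LOC121423589, LOC121406388 and LOC121423611. LOC121423589 had 10.9, 9.64, 67.4 and 44.2 CPM in the ovary, against 306, 251, 187 and 169.9 CPM in the testis, without overlap, and a log2 fold change of -2.14 ± 0.63 (adjusted p 0.0147). LOC121406388 had 0, 0.235, 0 and 0.0705 CPM in the ovary, against 0.637, 2.24, 1.57 and 4.58 CPM in the testis, and a log2 fold change of -4.08 ± 1.32 (adjusted p 0.0230). LOC121423611 had 0.933, 1.80, 1.15 and 2.59 CPM in the ovary, against 7.96, 13.6, 2.91 and 9.43 CPM in the testis, and a log2 fold change of -1.69 ± 0.66 (adjusted p 0.0492). In all 3 genes every ovary library lay below every testis library. The same 3 were higher in the juvenile ovary than in the juvenile testis, by 7.45, 6.61 and 9.60 times with 1 library each.

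**Figure D5:**
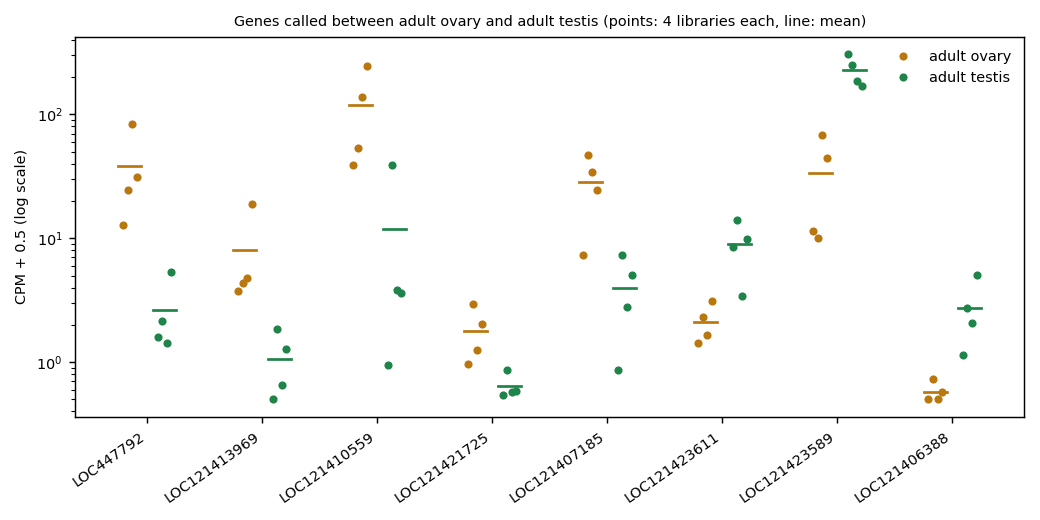
CPM + 0.5 (log scale) of the 8 named egg-restricted genes called between adult ovary (left of each pair, orange) and adult testis (right, green). Points are the 4 libraries of each group and lines are their means. LOC447792 and the 4 genes to its right are higher in the ovary, and the last 3 are lower.

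Testis replicate 2 held the highest testis value for 41 of the 79 genes, a count that was not made over all genes. Its share of counts was 0.304%, against 0.0582%, 0.0628% and 0.0835% in the other testis libraries. LOC121423894 had 1.501, 733, 57.3 and 18.7 CPM in the 4 testes and LOC446158 had 0.182, 247, 21.3 and 7.76 CPM. The part of this library in the counts of calls was not tested beyond leaving it out, which gave 33 higher and 1 lower calls, beside 19.9% and 28.3% of all genes.

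Against the juvenile gonads of indeterminate sex, the adult ovary was lower for 34 of the 78 egg-restricted genes tested, beside 24.8% of 18417 genes, and higher for none, beside 18.6%. At an unadjusted p under 0.05 were 42 of the 78, a share close to the 52.3% of all genes tested. DESeq2 gave 0 higher and 48 lower calls, beside 27.6% of all genes lower. The rule capped the adult ovary relative to eggs and left the juvenile gonads free, so a lower adult ovary is favoured by the choice of genes. The median log2 fold change was -2.73 for these genes and -0.67 for all genes tested. The count depended on which libraries and which fit were used. Leaving out indeterminate gonad 1, 2 or 3 gave 53, 17 or 21 lower calls, beside 22.5%, 19.9% and 21.1% of all genes, and without adult ovary replicate 3 it was 21, beside 21.3%. A single fit over all 15 groups called 29 of 79 lower, beside 34.6%. The share of lower calls therefore stood close to that of all genes without the second indeterminate gonad and in the fit over all groups. Of the 34 genes, 14 were called whichever library was left out.

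LOC121406388 had 0, 0.235, 0 and 0.0705 CPM in the adult ovary, against 0.801, 64.5 and 48.9 CPM in the indeterminate gonads, with a log2 fold change of -8.50 ± 1.65 and an adjusted p of 0.00307. LOC121417344 had 0.769, 0.0784, 0.617 and 0.669 CPM in the adult ovary, against 2.08, 341 and 124 CPM in the indeterminate gonads, with a log2 fold change of -7.73 ± 1.40 and an adjusted p of 0.00226. In both genes every adult ovary library lay below every indeterminate gonad. LOC121421557 had 10.9, 16.5, 8.38 and 12.9 CPM in the adult ovary, against 21.5, 2122 and 2667 CPM in the indeterminate gonads, again without overlap, with a log2 fold change of -6.62 ± 1.23 (adjusted p 0.00254). LOC121417363 had a log2 fold change of -6.37 ± 1.67 (adjusted p 0.0120), and its first indeterminate gonad, at 0.386 CPM, was close to the highest adult ovary at 0.220 CPM. LOC121415210 had 0.878, 7.53, 2.29 and 8.19 CPM in the adult ovary, against 1.48, 1288 and 269.9 CPM in the indeterminate gonads. There the first indeterminate gonad lay inside the adult ovary range, and the log2 fold change was -6.28 ± 1.58 (adjusted p 0.0102).

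The adult testis against the same juvenile gonads gave no call by edgeR for any of the 77 egg-restricted genes tested, nor for any of the 20521 genes in the test (0% in either direction). The lowest adjusted p was 0.122. At an unadjusted p under 0.05 stood 65 of the 77 genes, beside 15.3% of all genes tested. All 77 had a log2 fold change below 0, with a median of -4.30, while the median over all genes was 0.01. The rule capped the adult testis relative to eggs and left the juvenile gonads free, so a lower adult testis is favoured by the choice of genes. DESeq2's Wald test called 52 of the set lower, beside 2.63% of all genes, and 0 higher. A single edgeR fit with all 15 groups called 25 lower, beside 1.67%, and leaving out the first indeterminate gonad gave 23, beside 0.321%. LOC121415210 had 1.96, 34.1, 6.90 and 18.3 CPM in the adult testis, against the 1.48, 1288 and 269.9 CPM of the indeterminate gonads. In this gene the first juvenile library lay below every testis library and the other 2 lay far above them. The 2 comparisons with indeterminate gonads share those libraries, and the adult ovary and adult testis libraries each enter 2 of the 3 tests.

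Coelomic fluid and spines, also outside the rule, held little of this RNA. Coelomic fluid gave 0.0407% of its counts to the 79 genes, and the 4 spine libraries between 0.0364% and 0.0851%. In coelomic fluid 43 genes were under 1 CPM and 1 gene, LOC121418579, reached 25% of the egg mean, beside 82.6% of the egg-expressed genes. That gene, singled out after its value was seen, had 96.2 CPM in coelomic fluid, against 25.9, 125, 232 and 381 CPM in eggs. No egg-restricted gene reached 25% in green, mixed color, red or white spines, beside 85.6%, 89.4%, 86% and 87.5% of egg-expressed genes.

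Some of the genes lie beside each other in the genome. In the gene order of Lvar_3.0, 13 pairs of egg-restricted genes lay within 5 places of each other, 11 of them with no other gene between, and 26 genes belonged to such a pair. LOC121408237 and the non-coding LOC121408238 were direct neighbours, with egg means of 4309.8 and 355 CPM. LOC121410888 and LOC121410889 were also neighbours, with egg means of 931 and 262 CPM. The neighbours LOC121424735 and LOC121424736 had egg means of 15.02 and 1434 CPM. LOC121420018 and LOC121420019, described above, were both under 2 CPM in the juvenile ovary. Reads of near-identical or overlapping neighbours could have been divided between the genes during counting. Strand handling is not stated in the sources used here, so the separate levels of such pairs are uncertain.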

How the data were processed

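RNA selected by polyA was measured in 64 bulk libraries. The deposited table holds raw counts of reads per gene, and nothing in it was normalized by the authors. Per the submitters' processing notes the tools included DESeq2, STAR and featureCounts, with no version, and the genome build is not given in the sources used here. Of the lines, 3 were left out because their identifiers were broken. The genes and lists were chosen with earlier results of these data known. Named genes are those at the extremes of the ratio, of the egg level, of the stage 1 and adult ovary levels and of each test, with 5 or 8 from each end. Genes outside this rule were named after their values were seen. Marker lists and protein families could not be matched, since identifiers carry no product names.

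CPM used column totals (pandas 2.3.3). Tests ran in R 4.3.3 with edgeR 4.0.16's quasi-likelihood functions (on limma 3.58.1), scaled by TMM and filtered with filterByExpr, on the 2 groups compared, and Benjamini-Hochberg adjustment over all genes tested. DESeq2 1.42.0 was an alternative. Scripts were tested on simulated data. Replicate numbers were not taken to pair samples. Intervals cover counting error only.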

Additional observations from a re-analysis of the deposited data

Results flagged for a closer look

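Among 78 groups of 4 values tested for a single distant value, 9 had one. The test's nominal rate of 1 in 20 assumes normal, independent values. Raw CPM of genes picked at extremes need not meet this, so no excess over chance is read from the count. The share of counts in the egg-restricted genes was set apart in 3 libraries, radial nerve replicate 2 at 3.05%, testis replicate 2 at 0.304% and interambulacral plates replicate 3 at 0.112%. Single genes were set apart in egg replicate 4, with LOC121417344 at 808 CPM, LOC121407371 at 58.5 CPM and LOC121423589 at 2344 CPM. In adult ovary replicate 4, LOC121413969 stood at 18.6 CPM. In testis replicate 2, LOC121410559 stood at 38.7 CPM and LOC121421725 at 0.359 CPM.

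For 5 genes the ovary and the testis differed in opposite directions in juveniles and in adults, which was not tested because the juvenile gonads had 1 library each. The same count was not made over all genes, so no background share stands beside it. In juveniles the ratio of ovary to testis was 36.7 for LOC121417344, 9.60 for LOC121423611, 7.45 for LOC121423589 and 6.61 for LOC121406388, while in adults every ovary library lay below every testis library for these 4 genes. Of these, LOC121417344 was not called between the adult gonads by edgeR (adjusted p 0.0898). For LOC121420018 the juvenile ratio was 0.447, while every adult ovary library lay above every adult testis library. That ratio rests on low levels, 0.404 CPM in the juvenile ovary and 1.52 CPM in the juvenile testis.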

How the results depend on the processing

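The number of egg-restricted genes was 79, and 125 at a 2-fold or 51 at an 8-fold ratio, 137 with the adult ovary not among the types, and 50 when every egg library had to lie above every other library. Leaving out 1 library gave 64 to 96 genes. The share in eggs fell to 4.61% without the 5 genes of highest egg mean. In the ovary against testis comparison, leaving out 1 library gave 19 to 33 higher calls, beside 19.9% to 24.6% of all genes. Lower calls numbered 1 to 3, beside 27.2% to 36.5%. The fewest higher calls were 19 of 75 without ovary replicate 4, beside 21.1%, and 20 of 76 without testis replicate 3, beside 23.6%. The most were 33 of 76 without testis replicate 2, beside 19.9%. DESeq2 gave 5 lower, beside 34.99% of all genes, and 1 fit over all 15 groups gave 13 higher, beside 19.7%. Against the indeterminate gonads, leaving out 1 library gave 0 to 23 lower calls for the adult testis, beside 0% to 0.321% of all genes. For the adult ovary it gave 17 to 53, beside 19.9% to 27.8%. For the testis DESeq2 gave 52 lower, beside 2.63%, and 1 fit over all 15 groups gave 25, beside 1.67%. With a replicate block, lower calls against the indeterminate gonads numbered 1 for the testis, beside 0.0146% of all genes. For the ovary they numbered 11 of 78, beside 18.8%. The ovary against testis comparison then gave 25 higher and 2 lower calls, beside 21.2% and 31.7%. Correlations of deviations between same-numbered libraries lay between -0.06 and 0.36, without every pair over 0.1. Some libraries correlated best with their own number and others did not. With so few libraries this cannot show whether same-numbered samples share an animal or a batch. For the juvenile gonads, 1 gene was lower in the ovary by 4-fold with a pseudocount of 0.1 CPM, and 3 were by 2-fold. No share over all genes was counted at these settings.

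Counts at 25% of the egg mean also moved. The share of egg-expressed genes was counted only at the main setting, so no background share stands beside these counts at other settings. With a pseudocount of 5 CPM they were 10 in the first indeterminate gonad and 11 in the juvenile testis. With the level required within 2-fold of the egg mean, 45 of the 79 genes reached it in the second and 19 in the third indeterminate gonad. Within 8-fold, 70 reached it in the third and 6 in the juvenile testis, and TMM scaling at 25% gave 29 in the third. Leaving out 1 egg library gave 1 to 8 in the first indeterminate gonad and 1 to 4 in the juvenile testis. The cause of these shifts was not tested. Members chosen without radial nerve replicate 2 gave each of these counts within 1.5 times. DESeq2 size factors in edgeR moved the median log2 fold change of all genes to -0.68 for the ovary against testis and to -0.83 for the ovary against indeterminate gonads, and no count of calls by over 1.5 times. Levels under a few CPM, such as those of LOC121421725, LOC121406388 and LOC121417363 in the adult ovary, rest on few reads. Single libraries carry no replicate error.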
